A study of Mus musculus with 4 samples.

Results

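YAP sites at the edges of protein-coding genes were described in mouse epidermis with and without Bmal1. A site is a called peak whose summit, its highest point, lay within 1 kb of a start or an end of exactly 1 protein-coding gene span. Of 36576 peaks in the wild-type (WT) list, 6613 met this rule (18.1%, 95% interval 17.7 to 18.5). Of 14879 peaks in the knockout (KO) list, 2139 did (14.4%, 13.8 to 15.0). A further 1276 WT and 423 KO peaks lay within 1 kb of 2 or more genes and were left out. Strand was known for 17274 of 21631 genes, and it placed 4838 of the WT sites at gene starts and 466 at gene ends. The other 1309 WT sites belonged to genes whose strand was not known.

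The data come from chromatin immunoprecipitation and sequencing (ChIP-seq) with an anti-YAP antibody. Epidermal cells of adult mice aged 18 to 25 weeks were collected at Zeitgeber time 4 (ZT4), which is 4 h after lights on, and were fixed with 2 fixatives in turn. The mice were Bmal1 WT or Bmal1 KO by the genotype label, while the protocol writes Bmal1cKO, and none of the sources used here gives the cells in which the gene was deleted. YAP peaks do not read out the deleted gene, so they are no check of the genotype. There was 1 pooled peak list for each genotype, and what was pooled is not given, so no value has a replicate error and no test was possible. Intervals are exact 95% intervals and cover counting error only.

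YAP is a co-activator that is held in the cytoplasm by the kinases of the Hippo pathway and, in the nucleus, reaches DNA mainly through TEAD proteins. It is best known for acting at enhancers away from genes, often beside AP-1 factors, and it also occupies promoters. In the epidermis YAP is associated with proliferation of basal keratinocytes and with wound repair. BMAL1 is the clock activator that pairs with CLOCK and binds the E-box, so a promoter can hold the letters of both systems.

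The summits of strong sites are shown first, as the sequence under the peak. The stretches are 100 bases long, lie upstream of a RefSeq start, and are written on the strand of the gene from RefSeq, build GRCm38.p6 (mm10). Such a start need not be the start of the gene span. At Amotl2 the summit lay 639 bp downstream of the start of the span. Capitals mark the TEAD core (GGAATG, on either strand), the AP-1 element (TGACTCA or TGAGTCA) and the E-box (CACGTG). The first set holds the 8 sites with the most WT reads, among those with such a stretch, that were called in both genotypes. Of these 8 stretches, 6 hold a TEAD core, Arap2 holds an AP-1 element only and Prkci holds none of the elements.
Arap2 (chr5:62766281-62766380, minus strand): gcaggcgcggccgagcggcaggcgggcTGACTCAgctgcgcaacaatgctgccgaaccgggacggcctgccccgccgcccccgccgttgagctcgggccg
Prkci (chr3:30995565-30995664, plus strand): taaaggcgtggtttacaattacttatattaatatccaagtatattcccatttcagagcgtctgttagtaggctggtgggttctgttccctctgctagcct
AI661453 (chr17:47436474-47436573, plus strand): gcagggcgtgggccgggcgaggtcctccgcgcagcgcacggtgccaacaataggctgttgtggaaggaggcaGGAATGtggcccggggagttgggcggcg
Wwc2 (chr8:47990567-47990666, minus strand): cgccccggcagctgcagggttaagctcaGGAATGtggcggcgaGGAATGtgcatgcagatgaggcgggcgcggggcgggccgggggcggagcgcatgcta
Amotl2 (chr9:102717680-102717779, plus strand): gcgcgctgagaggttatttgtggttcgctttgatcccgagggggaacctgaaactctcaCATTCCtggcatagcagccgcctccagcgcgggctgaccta
Il17re (chr6:113458662-113458761, plus strand): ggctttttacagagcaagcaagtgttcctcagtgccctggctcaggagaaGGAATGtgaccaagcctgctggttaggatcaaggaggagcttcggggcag
Vkorc1 (chr7:127895690-127895789, minus strand): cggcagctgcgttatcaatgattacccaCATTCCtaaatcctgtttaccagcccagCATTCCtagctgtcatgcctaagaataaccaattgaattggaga
Actn4 (chr7:28962477-28962576, minus strand): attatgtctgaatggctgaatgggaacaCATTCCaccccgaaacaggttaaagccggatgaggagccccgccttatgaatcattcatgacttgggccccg

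The next set holds the 4 sites with the most WT reads that were called in WT and not in KO, from the same kind of stretch. None of the 4 holds any of the 3 elements within these 100 bases, which says only that these letters are not in this window. These sites were also weaker, with 92 to 104 WT reads against 183 to 248 in the first set. The share of sites with a TEAD core rose with reads, as given below, so the 2 sets are not compared at equal strength.
Josd1 (chr15:79687952-79688051, minus strand): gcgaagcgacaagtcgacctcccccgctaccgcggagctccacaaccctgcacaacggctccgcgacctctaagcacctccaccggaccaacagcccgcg
Haus6 (chr4:86612160-86612259, minus strand): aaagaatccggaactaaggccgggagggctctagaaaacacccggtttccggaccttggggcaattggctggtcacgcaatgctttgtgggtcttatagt
Akap1 (chr11:88864667-88864766, minus strand): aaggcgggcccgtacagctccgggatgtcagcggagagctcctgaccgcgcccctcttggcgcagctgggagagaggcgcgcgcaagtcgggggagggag
Dot1l (chr10:80755076-80755175, plus strand): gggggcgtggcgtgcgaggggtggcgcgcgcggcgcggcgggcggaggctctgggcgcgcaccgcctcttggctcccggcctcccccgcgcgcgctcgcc

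The last set holds the 3 strongest sites with an E-box inside the stretch. In Otud1 and in Yap1, the gene of YAP itself, a TEAD core lies within the same 100 bases as the E-box.
Otud1 (chr2:19657622-19657721, plus strand): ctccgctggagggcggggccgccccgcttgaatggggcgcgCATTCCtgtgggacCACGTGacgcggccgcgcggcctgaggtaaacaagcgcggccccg
Yap1 (chr9:8004698-8004797, minus strand): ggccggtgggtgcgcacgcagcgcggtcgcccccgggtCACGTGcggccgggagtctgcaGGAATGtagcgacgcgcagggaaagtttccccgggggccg
Aff4 (chr11:53350642-53350741, plus strand): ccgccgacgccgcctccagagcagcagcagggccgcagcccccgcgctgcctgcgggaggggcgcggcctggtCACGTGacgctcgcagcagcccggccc

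YAP sites gathered at gene starts and not at gene ends. Of the 5304 WT sites with known strand, 91.2% (90.4 to 92.0) lay at the start. The share was 89.3% (87.8 to 90.8) among the 1715 KO sites. Start summits had a median position 23.5 bp downstream of the start, with the middle 50% between -150 and 221 bp. Within 100 bp of the start lay 30.1% of them, within 200 bp 53.0% and within 500 bp 80.8%. The corresponding shares at gene ends were 7.08%, 18.0% and 48.5%, close to an even spread over the window. The WT sites belonged to 5915 genes, which is 27.3% of protein-coding genes, and 665 of these genes carried 2 or more sites.

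**Figure D1:**
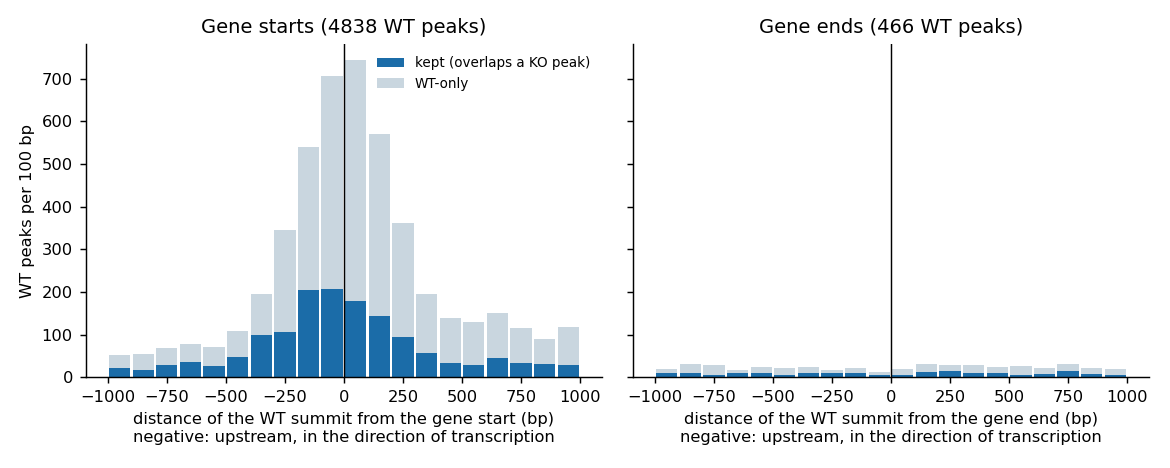
WT peaks per 100 bp (vertical axis) by distance of the summit from the gene start (left, 4838 peaks) or gene end (right, 466 peaks), with negative distances upstream. Dark bars are peaks that overlap a KO peak and pale bars those that do not; the counts rise around the start and are flat around the end.

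Strong and weak start sites did not lie at the same place. Sites with at least 120 reads at the WT summit had a median position of -119 bp, on the upstream side. Sites also called in KO had a median of -31 bp and sites called only in WT 45.5 bp. Upstream of the start lay 2222 sites with a median of 61 reads, of which 185 (8.33%) had at least 120. Downstream lay 2616 sites with a median of 55 reads, of which 93 (3.56%) did. Reads here are whole numbers at the summit, recovered from the deposited fold and p-value, and both lists shared 1 even-spread background of 9.63 reads per 300 bp.

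Sites at gene edges were weaker than the rest of the WT list. Their median was 57 reads (range 29 to 260), against 62 at all other WT peaks. Only 6.12% had at least 120 reads, against 11.0% of the others. They were wider, with a median of 581 bp against 505 bp. Their local background was also higher, with a median of 11.5 against 10.8 reads, and it lay above 1.05 times the even-spread level at 67.1% of them against 56.7%.

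The kept share of these WT sites was below that of the rest of the WT list. A WT site is named kept where 1 bp or more of it was covered by a KO peak. Kept sites numbered 2049 of 6613 (31.0%, 29.9 to 32.1), beside 39.1% over all WT peaks and 40.9% (40.4 to 41.5) of the other peaks. This share depended on the rule: it was 20.1% with 50% reciprocal overlap and 73.6% with the WT list reduced by score to the number of KO peaks. The kept share was 30.3% (29.0 to 31.7) at starts and 38.2% (33.8 to 42.8) at ends. In the KO list, 2129 of 2139 sites (99.5%) overlapped a WT peak, beside 99% over all KO peaks.

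The kept share was also compared at equal strength. Other peaks with the reads of these sites were kept in 33.8% of cases, so the difference at equal reads was -2.80 percentage points. It was -0.66 points in strata of the deposited score and -0.77 in strata of −log10 p, both of which take in the local background. With 50% reciprocal overlap it was -8.39 points at equal reads, in sites that were also wider. At starts the kept share of other peaks at the same reads was 33.2%, and at ends 39.3%. Upstream of the start 35.7% were kept and downstream 25.8%, where other peaks at the same reads gave 38.5% and 28.7%. The part of the local background and of the width in these differences was not tested.

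By read class, the kept share at gene edges ran from near none to all. It was 10.5% at 50 to 59 reads, against 14.2% of other peaks, and 27.0% at 60 to 69 reads, against 33.0%. At 70 to 79 reads it was 52.7% against 55.3%, and at 80 to 99 reads 75.8% against 81.6%. At 100 to 119 reads it was 98.1% (96.0 to 99.3) against 96.6% (95.8 to 97.4), with overlapping intervals. All 405 sites with at least 120 reads were kept, as were 3281 of 3287 other peaks.

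**Figure D2:**
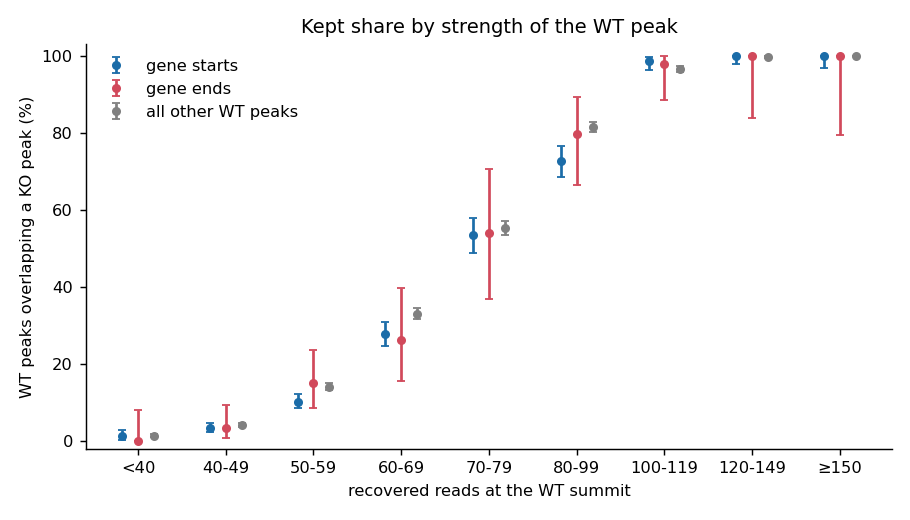
Share of WT peaks that overlap a KO peak (vertical axis, %) by recovered reads at the WT summit (horizontal axis), for gene starts (blue), gene ends (red) and all other WT peaks (grey). Points are shares and bars exact 95% intervals for counting error; all 3 groups rise together from near 0 to 100%.

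Sites just inside and just outside the 1 kb limit were similar in number and reads. With exactly 1 gene within 1100 bp, summits 901 to 1000 bp from the gene edge numbered 267, with 30.3% kept and a median of 55 reads. Summits 1001 to 1100 bp away numbered 235, with 34.5% kept and 59 reads.

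Every kept site at a gene edge with at least 120 WT reads had fewer reads in KO. The same held for 3280 of the 3281 other kept peaks at this limit. Choosing sites by their WT reads favours a lower KO value, so the same ratio is also given for sites chosen by KO reads. The median of the 405 sites was 145 WT and 81 KO reads. Above the even-spread background the median log2 ratio of KO to WT was -0.94 (-0.97 to -0.92), a ratio of 0.519, with the middle 50% of sites between -1.12 and -0.78. Other strong kept peaks had a median of -0.87 (-0.88 to -0.86, 3281 peaks). Of the 38 sites chosen by at least 120 KO reads, all had more reads in WT, with a median of 133 KO and 209.5 WT reads and a log2 of -0.68 (-0.72 to -0.59). At 80 KO reads or more all 211 were lower in KO, with a median log2 of -0.79 (-0.81 to -0.77). Other KO peaks at these 2 limits had medians of -0.62 and -0.75, and 449 of 450 and 2049 of 2051 were lower in KO. With sites chosen by WT reads, starts and ends had -0.95 (278 sites) and -0.94 (-1.10 to -0.81, 37 sites). These medians describe 1 WT and 1 KO pool, and sites are not replicates. A site bound in fewer cells, less YAP at the site in each cell and a less efficient precipitation cannot be told apart here.

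The fall was deeper at the weaker of the strong sites. At 120 to 149 reads the median log2 was -1.01 at gene edges and -0.93 at other peaks. From 150 reads it was -0.82 and -0.79. A log2 of -1 or lower was reached by 165 of the 405 sites (40.7%), by 29.4% of the other strong kept peaks and by 30.7% of all of them. The KO summit lay close to the WT summit, with a median shift of 44 bp over all kept sites. For 97.7% of kept sites the KO partner was near the same gene.

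**Figure D3:**
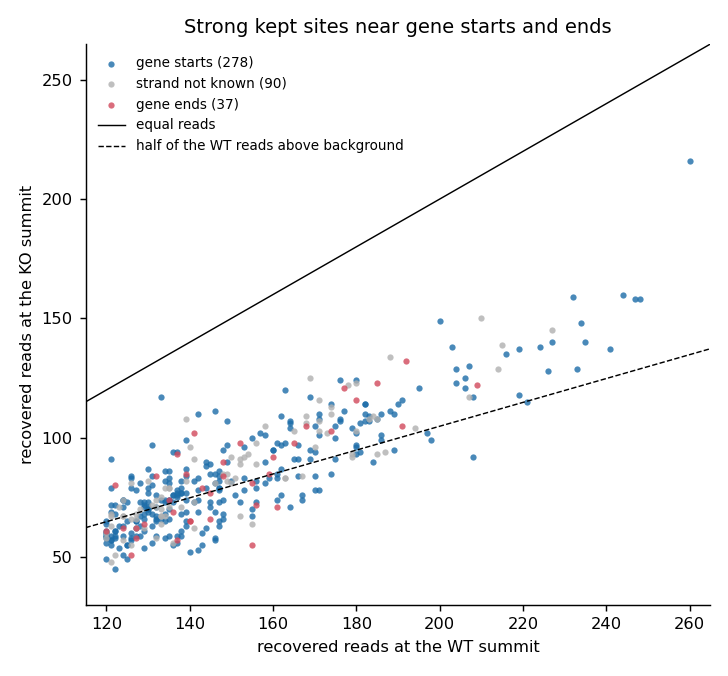
Recovered reads at the KO summit (vertical axis) against reads at the WT summit (horizontal axis) for the 405 kept sites with at least 120 WT reads, coloured by gene start, gene end or strand not known. The solid line marks equal reads and the dashed line a log2 ratio of -1 above background; every point lies below the solid line.

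The strongest start site lay at Syna. Syna, which encodes a syncytin known for cell fusion in the placenta, had 260 reads in WT and 216 in KO at a peak on chromosome 5 from 134576641 to 134578133, 682 bp upstream. Its log2 ratio of -0.28 was the second highest among strong start sites. Lats2, a Hippo kinase that phosphorylates YAP, had 241 and 137 reads at a peak 73 bp inside the gene on chromosome 14 (57744754 to 57746665). Myl12b, a regulatory light chain of non-muscle myosin, had 235 and 140 reads 253 bp upstream.

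Prkci, the atypical protein kinase C of the polarity complex, had 233 WT and 129 KO reads and is printed above. Arap2, a GTPase-activating protein for Arf, had 248 and 158, and its stretch above holds an AP-1 element and no TEAD core. Adtrp had 247 and 158, Avpi1 244 and 160, and Macc1, a gene linked to MET signalling, 234 and 148. These 8 were picked for their WT reads, which favours a lower KO value, and 7 of the 8 ratios lay between -0.90 and -0.64 on the log2 scale, the exception being Syna.

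The start sites with the lowest ratios were at Egln2, Skint4, Mrpl23 and U2surp. Egln2, a prolyl hydroxylase that marks HIF for degradation, had 122 WT and 45 KO reads (log2 -1.67). Skint4, of a family expressed in skin and thymus epithelium, had 140 and 52 (-1.62). Mrpl23, a mitochondrial ribosomal protein, had 142 and 53 (-1.61), and U2surp, a splicing factor, 143 and 55 (-1.56). At the other extreme stood Cyp2r1, which hydroxylates vitamin D, with 133 and 117 reads (-0.20). Cldn4, a tight junction claudin, had 142 and 110 (-0.40), and Spint2, an inhibitor of serine proteases, 146 and 111 (-0.43).

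The strongest start sites without a KO peak were weaker than any of these. Gpr155 had 105 WT reads, Josd1, a deubiquitinase, 104, and Prkaa1, the catalytic subunit of AMP-activated kinase, 100. Adap2 and Haus6, a subunit of the augmin complex of the spindle, had 99 each. Ldb1, an adaptor of LIM-domain factors, had 98, Ccdc9 97 and Pts, an enzyme of tetrahydrobiopterin synthesis, 97. The local background under these 8 summits ran from 9.63 reads at Prkaa1, Ldb1 and Ccdc9 to 21.6 at Josd1.

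In the KO list the sites at gene edges were also weaker than the rest. Their median was 48 KO reads, against 53 at the other KO peaks, and 1.78% reached 120 reads, against 3.53%. The width differed little, with medians of 454 and 446 bp. Start summits had a median position of -34.5 bp in KO, with the middle 50% between -226 and 171 bp.

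Only 10 sites near gene edges were called in KO and not in WT, and all were weak. At starts these were Rexo2 with 42 KO reads, Abhd14b with 41, Cplane2 with 40, Gja1, which encodes the gap junction protein connexin 43, with 37, Zfr and Cbll1 with 34 each and Ube2g1 with 33. Strand was not known for Pigyl with 45, 9130401M01Rik with 44 and Parp10 with 37.

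Sites at gene ends were fewer than start sites, and their highest had 209 WT reads against 260. They were not weaker as a set. Their median was 59 reads against 57 at starts, and 7.94% against 5.75% had at least 120. Tyro3, a receptor tyrosine kinase, had the most, with 209 WT and 122 KO reads 788 bp beyond its end (log2 -0.83). Lexm had 192 and 132, Bmp2k 191 and 105, Prss36, a serine protease, 185 and 123, and Slc13a4, a sulfate transporter, 180 and 116. Faap100, of the Fanconi anaemia core complex, had 177 and 121, Cyp2b19, a cytochrome P450 known from keratinocytes, 174 and 103, and Stn1, of the telomere CST complex, 168 and 105. These 8 were also picked for their WT reads.

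The end sites with the lowest ratios were at Sertad1, Got1, Pck1 and Thap4. Sertad1 had 155 and 55 reads (log2 -1.68), the lowest of the 405 strong sites. Got1, an aspartate aminotransferase, had 126 and 51 (-1.49), and Pck1, a gluconeogenic enzyme, 137 and 57 (-1.43). Thap4 had 161 and 71 (-1.30). The highest was Gng7, a G protein subunit, with 141 and 102 (-0.51), then Lexm (-0.58), Faap100 (-0.59) and Vinac1 with 137 and 93 (-0.61).

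WT-only end sites rose to 117 reads at Hjurp, the chaperone of the centromeric histone CENP-A. The local background under that summit was 48.4 reads, against 9.63 to 15.9 at the other sites named here. Efcab11 had 98, Ago3, an Argonaute protein, and 9430015G10Rik 91 each, and Cldn4 89 at its end. Cbs, which makes cystathionine, had 88, Clic3 87 and Socs3, a cytokine signalling inhibitor, 86. Cldn4 carried 3 sites, of which only the start site with 142 WT reads was kept.

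Sites of genes without known strand could not be placed at a start or an end. Their kept share was 30.8% (28.3 to 33.4) of 1309, and the 90 strong kept ones had a median log2 of -0.92 (-0.98 to -0.85). The 4 with the most reads, chosen after their values were seen, were Itgb4 with 227 WT and 145 KO reads, Cblc with 215 and 139, Rbbp8 with 214 and 129 and Lrp6, a WNT co-receptor, with 210 and 150. Lrp6 had the highest ratio of the 4 (-0.51).

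Several genes carried more than 1 site. A start and an end site were both found at 194 genes. Krtdap, a keratinocyte differentiation gene, and Hnrnpl, a splicing regulator, carried 4 each, the most of any gene. The start site of Krtdap had 166 WT and 84 KO reads (-1.07), and an end site had 62 and 39. Its other end sites had 44 and 38 WT reads and were WT-only. At Hnrnpl the start site with 67 WT and 39 KO reads was the 1 kept of its 4. Adipor1, an adiponectin receptor with 3 sites that was chosen after its values were seen, had 170 and 105 reads at its start, and its end sites of 58 and 48 WT reads were WT-only. In all, 31 genes carried 3 or more sites.

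**Figure D4:**
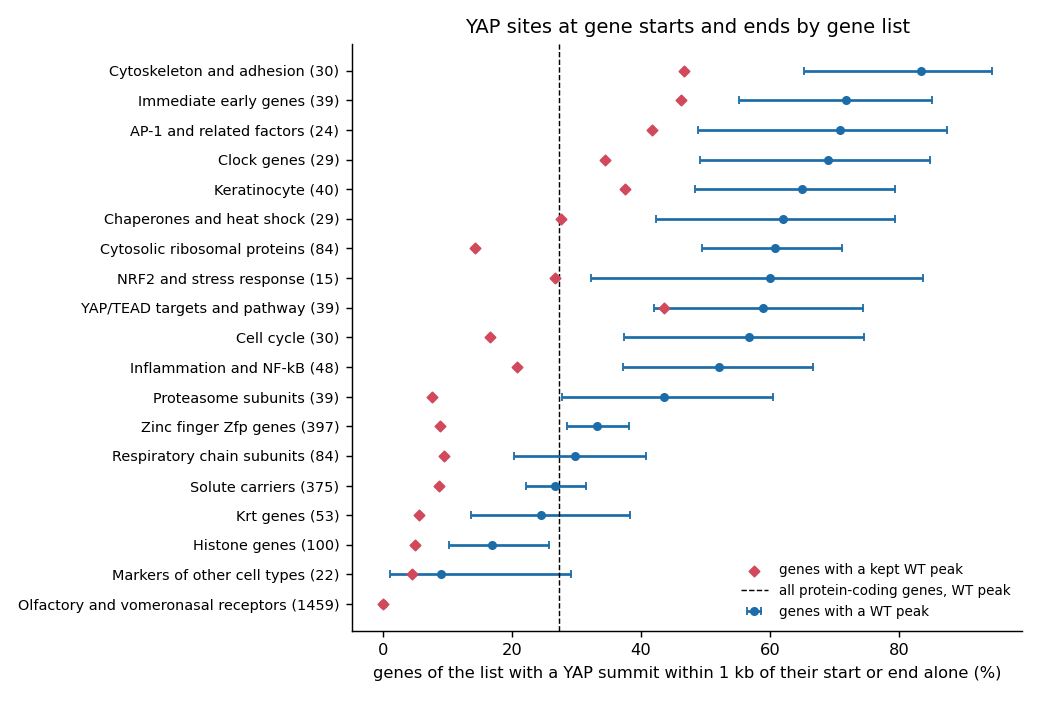
Share of the genes of each list (horizontal axis, %) with a WT summit within 1 kb of their start or end alone (blue, with exact 95% intervals) and with a kept one (red diamonds). Numbers in brackets are genes in the list, and the dashed line is the share of all protein-coding genes (27.3%). Points of the lists from cytoskeleton to respiratory chain lie to its right, and the interval of the respiratory chain spans it.

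Genes of the cytoskeleton, immediate early response, AP-1, the clock and keratinocytes had a site more often than all protein-coding genes (27.3%). The share was 25 of 30 for cytoskeleton and adhesion, 28 of 39 for immediate early genes, 17 of 24 for AP-1 factors, 20 of 29 for clock genes and 26 of 40 for keratinocyte genes. The list of YAP and TEAD targets and pathway genes had 23 of 39. These lists share members such as Atf3, Fos and Per1. Ribosomal protein (60.7%), chaperone (62.1%) and cell cycle genes (56.7%) also had shares above that of all genes. Markers of other cell types had 2 of 22, namely Dct of melanocytes (93 and 58 reads) and Col1a1 of fibroblasts (53 reads, WT-only). Olfactory and vomeronasal receptor genes had 1 of 1459, Olfr183 with 47 reads.

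Genes of the YAP pathway had 26 sites, of which 12 had at least 120 WT reads. Of the 26 sites, 17 were kept (65.4%, 44.3 to 82.8), where other peaks at the same reads gave 66.1%. The others were WT-only, from 35 reads at Amot to 63 at Gadd45b. Wwc2, a WW-domain regulator of the Hippo kinases, had 221 WT and 115 KO reads, and Amotl2, an angiomotin that holds YAP at junctions, 207 and 130. Vgll3, a TEAD co-factor, had 195 and 121, Tead4 187 and 94, Ptpn14 185 and 108, and Wwtr1, the gene of the YAP paralogue TAZ, 182 and 107. Tead1 had 179 and 92 and Yap1 127 and 59 (-1.25). The classical targets Axl, Ajuba and Ccn1 had 138 and 68, 136 and 76, and 108 and 44 reads, while Ccn2 had 48 in WT and no KO peak. 
Clock genes had 12 kept sites of 25 (48.0%, 27.8 to 68.7), where other peaks at the same reads gave 41.2%. Nr1d1, the gene of the repressor REV-ERBα, had 170 WT and 84 KO reads 345 bp upstream (-1.11). The period gene Per1 had 107 and 62 (-0.89). Csnk1e, a clock kinase, had 91 and 48, Cry2 78 and 40, and Clock itself 76 and 36. Cry1 with 83 WT reads, Nr1d2 with 67, Per2 with 56 and Dbp, a clock-output factor, with 55 were WT-only.

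Keratinocyte genes had 18 kept sites of 34 (52.9%), where other peaks at the same reads gave 54.5%. The highest was at Itgb4, a hemidesmosomal integrin, with 227 and 145 reads (-0.68). Perp, of desmosomes, had 150 and 81, Jup, which encodes plakoglobin, 146 and 81, Itgb1 130 and 87 and Tgm1, the transglutaminase of the cornified envelope, 115 and 75. Dsp had 104 and 75. Klf5, a factor of basal cells, had 85 and was WT-only.

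Some immediate early genes carried their stronger site at the end of the gene. Atf3 had 198 and 99 reads at its start, and Maff 158 and 90. Fos had an end site with 108 and 49 and a start site of 63 that was WT-only. Junb showed the same layout, with 106 and 57 at its end and 66, WT-only, at its start. In the inflammation list 10 of 29 sites were kept (34.5%, 17.9 to 54.3), where other peaks at the same reads gave 41.5%. Among the kept sites, Stat3, a cytokine-activated factor, had 171 and 78 (-1.24) and Socs1, which inhibits it, 129 and 54 (-1.43). Il1rn, the interleukin-1 receptor antagonist, had 127 and 65 and Rela, a subunit of NF-κB, 102 and 65.

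Housekeeping families are set beside the 27.3% of all protein-coding genes. Ribosomal protein genes had a site at 51 of 84 (60.7%), and 13 of their 53 sites were kept (24.5%, with 26.9% of other peaks at the same reads). Rpl3 had 121 and 67 reads, the most of the family. None of the sources says how reads shared with the many ribosomal pseudogenes were assigned. Proteasome subunits had a site at 17 of 39 (43.6%, 27.8 to 60.4) and histone genes at 17 of 100 (17.0%, 10.2 to 25.8). Respiratory chain subunits had one at 25 of 84 (29.8%, 20.3 to 40.7), near the share of all genes.

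Promoter sequence was examined in 300-base windows, 250 bases before and 50 after each RefSeq start, over 21045 windows of protein-coding genes. Windows nearest the 4838 start sites were rich in CpG, with an observed to expected CpG ratio of at least 0.6 in 79.2%, against 48.1% of all windows. The TEAD core was present in 12.8% (11.9 to 13.8), against 13.5% of all windows and 10.0% of all CpG-rich ones. The E-box was present in 11.6%, against 7.91% and 11.4%. The ETS element (CCGGAAG) was present in 18.0%, against 11.7% and 19.8%, and the AP-1 element in 3.84%, against 4.69% and 2.47%. The SP element (CCCGCC) was in 69.4%, against 46.0% and 73.0%. Over all start sites the E-box, ETS and SP shares lay nearer those of CpG-rich windows than those of all windows, and the TEAD and AP-1 shares lay between the pair.

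The TEAD core followed the strength of the site. In the 2153 windows that held the summit, it was present in 11.0% (8.70 to 13.7) under 50 reads, 12.4% at 50 to 79, 26.6% at 80 to 119 and 45.0% (35.9 to 54.3) from 120 reads, where 120 windows were counted. In CpG-rich windows alone the lowest and highest classes had 8.32% and 48.7%. Over every start site, the summit inside the window or not, they had 9.83% and 26.6%. These classes and the CpG limit were chosen after the data were seen.

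**Figure D5:**
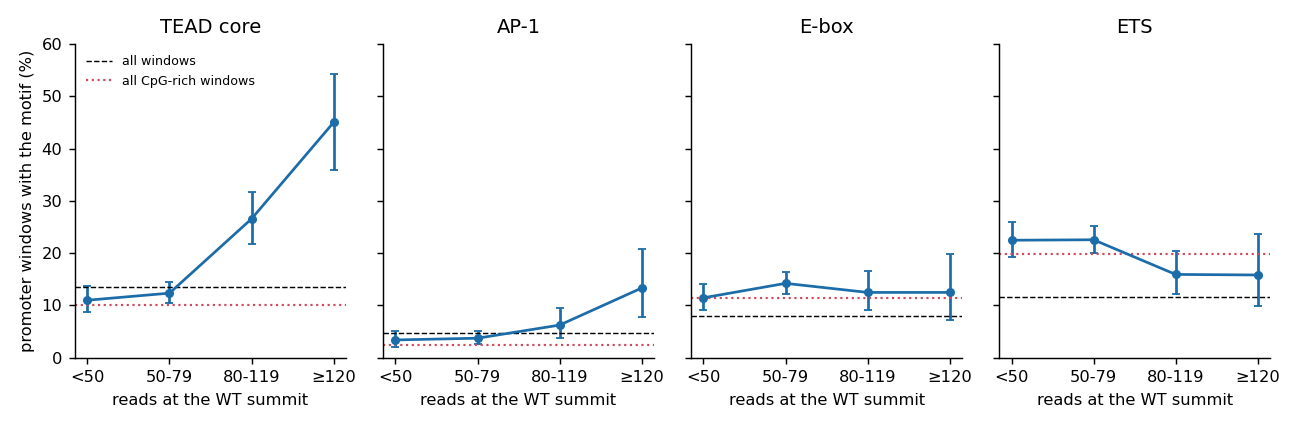
Share of promoter windows with the element (vertical axis, %) by recovered reads at the WT summit, for windows that hold the summit, with exact 95% intervals. The dashed line is the share over all windows and the dotted line over CpG-rich windows; the TEAD core and AP-1 rise with reads, and the E-box does not.

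The match also lay nearer the summit at stronger sites. The median distance of the nearest TEAD core from the summit was 90.5 bp under 50 reads and 25.5 bp from 120 reads. Within 50 bp lay 32.4% and 72.2% of the matches in these classes. AP-1 was present in 3.41% of windows under 50 reads and 13.3% (7.82 to 20.7) from 120 reads. The E-box had 11.5%, 14.2%, 12.5% and 12.5% in the 4 classes of rising reads, and its median distance from the summit was 64 bp in the lowest and 81.5 bp in the highest. The ETS element had 22.5% in the lowest class and 15.8% (9.81 to 23.6) in the highest.

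At equal reads, the kept share with and without a TEAD core or an E-box differed by less than the counting interval. Sites with a TEAD core were kept in 47.1% (41.7 to 52.5), against 45.7% of sites without it at the same reads. Sites with an E-box were kept in 29.2% (23.9 to 34.9), 82 of 281, against 30.9% without it. Among strong kept sites the median log2 was -0.88 with an E-box (15 sites, middle 50% -1.19 to -0.86) and -0.94 without (105 sites, -1.10 to -0.77). The middle 50% of the ratios overlapped. Of the sites printed above with an E-box, Otud1 had 181 and 106 reads (-0.83), Yap1 127 and 59 (-1.25) and Aff4 121 and 79 (-0.68).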

How the data were processed

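YAP ChIP-seq peak lists of 1 pooled WT and 1 pooled KO list were used, and the 2 input samples have no list here. MACS2 2.1.1, SAMtools 1.5, Trimmomatic 0.36 and the build mm10 appear, without roles, in the submitters' processing notes, and no source used here gives the aligner. The deposited score is 10 times the −log10 q, truncated. The deposited fold ratio compares the summit with the caller's background, and the authors' −log10 p and −log10 q go with it. The lowest −log10 q in both lists lies just above 2, a q limit of 0.01. These are the authors' values, used to rank, stratify and solve for reads within a list.

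Whole reads at each summit were recovered from fold and −log10 p, with a scaling of 0.694 (WT) and 0.842 (KO). They matched within 0.002 at 100% of peaks, against 0.867% and 0.397% with the scaling 3% off. The procedure was tested on simulated data made with the same formulas. Kept means an overlap of at least 1 bp, also counted with bedtools 2.31.1, and KO reads come from the strongest overlapping KO peak. Log2 ratios are above the even-spread background of 9.63 reads. Gene spans, strand and sequences are from RefSeq tables of GRCm38.p6, with 21631 protein-coding genes. Strand was known only for genes in the promoter table. Kept shares of other peaks were standardised to read classes. Intervals are Clopper-Pearson, those of medians come from binomial order statistics, and both cover counting error only. PCR duplicates without molecular identifiers are not independent molecules. No test was run with 1 pool per genotype.

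Named sites are the 8 kept and the 8 WT-only sites with the most WT reads, up to 8 KO-only sites and the 4 lowest and 4 highest ratios at starts and at ends, genes with 2 or more sites (the 2 with the most), and genes of the lists. The site with the most reads of each list follows the rule, while further genes of a list, Adipor1, the KO-only sites of genes without strand and the 3 printed E-box sites were chosen after their values were seen. The sites and lists were chosen with earlier results of these data known. Alternatives covered overlap, distance, thresholds, read limits, background, pairing and composition. Python 3.11.15, pandas 2.3.3 and scipy 1.17.1 were used.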

Additional observations from a re-analysis of the deposited data

How the results depend on the processing

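No paired analysis was possible because there was 1 pooled list per genotype. Of the main results under the alternatives, 29 moved and 20 did not, and no difference or ratio changed sign; the cause was not tested unless given. With 50% reciprocal overlap the kept share of WT sites fell from 31.0% to 20.1%, at starts from 30.3% to 18.9% and at ends from 38.2% to 31.3%, the KO share from 99.5% to 62.1%, and the difference from other peaks at equal reads went from -2.80 to -8.39 points. With summits within 200 bp the WT and KO shares were 28.8% and 88.9%. Reducing the WT list to the number of KO peaks, which removes weak WT peaks, gave 73.6% and 74.8%, which turns a minority of kept WT sites into a majority. A distance of 2 kb gave a WT share of 32.3%, a start share of 87.4% and a strong log2 of -0.91, and 500 bp a start share of 94.3%. Score deciles gave a difference of -0.66 and classes of −log10 p, chosen after seeing the data, -0.77. The strong log2 of -0.94 was -0.99 from 100 reads, -0.82 from 150, -1.01 at 120 to 149 (chosen after seeing the data) and -0.86 without subtracting background, and -0.68 and -0.79 for sites chosen by at least 120 and 80 KO reads (chosen after seeing the data). The TEAD share of 12.8% was 15.9% where the summit lay inside the window and 10.9% in CpG-rich windows (chosen after seeing the data). Of the checks on named sites, 95 did not move and 3 did: Arap2, Egln2 and Sertad1 lost their KO overlap under the reciprocal rule. Under 60 reads the kept share was at most 15.0% at starts, at ends and at other peaks; depth was not varied.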

Other observations

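Among genes outside the lists described so far, chaperone genes had a site at 18 of 29 (62.1%, against 27.3% of all genes), with 9 of 21 sites kept (42.9%, against 40.6% of other peaks at the same reads). Hspb1, a small heat shock protein, had 129 WT and 72 KO reads (-0.94), Dnajb5 103 and 58, and Hspb8 97 and 57. Hspa9, the mitochondrial HSP70, had 94 and 67 (-0.56). Hsph1, a co-chaperone of HSP70, had 66 reads and was WT-only. Genes of the NRF2 stress response had a site at 9 of 15 (95% interval 32.3 to 83.7%). Of their 10 sites 4 were kept (40%, 12.2 to 73.8, against 38.3% of other peaks at the same reads). Prdx1, a peroxiredoxin, had 101 and 43 reads (-1.45), Gclm, of glutathione synthesis, 92 and 54 (-0.89), and Hmox1, heme oxygenase, 83 and 38 (-1.37). Keap1, the inhibitor of NRF2, had 54 and was WT-only.

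Cell cycle genes had a site at 17 of 30 (56.7%, against 27.3% of all genes), with 5 of 18 sites kept (27.8%, 9.69 to 53.5, against 33.1% of other peaks at the same reads). The strongest lay beyond the end of Cdkn2a, a cell cycle inhibitor locus, with 156 and 72 reads (-1.23). Rb1 had 127 and 66 and Cdk4 78 and 42. The cyclin gene Ccnb1 had a kept end site with 98 and 47 and a WT-only start site with 55 reads. Keratin genes had a site at 13 of 53 (24.5%, 13.8 to 38.3), near the share of all genes. Krt80 had 185 and 108 reads (-0.83) and Krt77 149 and 90 (-0.79), while Krt14, a basal keratin, had 52 and Krt15 72, both WT-only.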
